A study of Homo sapiens with 8 samples.

Results

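The comparison described here sets a second batch of MCF10A cells against a first one. MCF10A is an immortalised, non-tumorigenic line of human breast epithelial cells with basal features. Both batches went through the same 4 transfections: siRNA against LATS1 and LATS2 (siLATS), against p53 (sip53), against LATS1, LATS2 and p53 together (siLATS_p53), or a control siRNA (siControl). Every library, the siControl libraries included, therefore comes from transfected cells. Polyadenylated RNA was sequenced from 1 library per transfection and batch, so that 4 libraries of batch 2 stand against 4 of batch 1, paired by siRNA, out of 8 in all. Per the labels the batches were independent batches of cells. Culture, transfection and library steps that differed with the batch cannot be told apart. The members are the expression entries above the deposited floor (a log2 level of 5, below which every value had been set to 5) in at least 2 of the 8 libraries. They number 12315 of 29991 entries.

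Cultured breast epithelial cells can drift in differentiation, since basal cells that crowd or are deprived of growth factor switch on the keratins and cornified envelope proteins of stratified epithelium. They also sense foreign nucleic acid and cytokines. Type I and type III interferons act through a complex that holds STAT2 and IRF9 and binds the interferon-stimulated response element and switches on antiviral genes. Interleukin-1 and tumour necrosis factor act through NF-kB on chemokine and acute phase genes. Cell lines can also gain or lose whole chromosomes in culture.

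The summed linear signal was 23.7 to 24.9 M per library, and the depth estimated from the spacing of low values was 22.5 to 30.8 M reads in batch 2 and 11.3 to 37.0 M reads in batch 1. Between 11756 and 12012 entries lay above the floor in batch 2, and between 11926 and 12064 in batch 1. The number was lower in batch 2 in 4 of 4 pairs (exact paired permutation test, two-sided p = 0.125, the smallest that 4 pairs allow, and 0.208 when adjusted over 5 library measures). The share of signal in the top 10 entries was 13.04% ± 1.77 in batch 2 and 11.9% ± 1.37 in batch 1 (SD, n = 4 libraries each), higher in batch 2 in 4 of 4 pairs, and the mean log2 level was 9.28 ± 0.06 in batch 2 and 9.33 ± 0.07 in batch 1, lower in batch 2 in 4 of 4 pairs; each had the same exact permutation p. LATS1 and LATS2, which were targeted in the siLATS and siLATS_p53 libraries, did not pass the test between the batches. LATS1 was 8.10 (siLATS) and 7.90 (siLATS_p53) in batch 2, against 7.93 and 7.97 in the same groups of batch 1, and the sip53 and siControl libraries were at 9.94 and 9.64 in batch 2, against 9.87 and 9.54 in batch 1. LATS2 was 8.63 (siLATS), 9.996 (sip53), 8.81 (siLATS_p53) and 10.22 (siControl) in batch 2, against 8.72, 9.74, 8.75 and 9.92 in batch 1. CDKN1A, a p53 target that encodes the cell cycle inhibitor p21, was low with p53 siRNA in both batches, at 10.06 (sip53) and 10.16 (siLATS_p53) in batch 2 and 9.82 and 9.89 in batch 1, with the libraries without it at 12.83 and 13.07 in batch 2 and 12.29 and 12.88 in batch 1. The cells of both batches carried epithelial and basal transcripts: KRT5, the basal keratin, was 15.94 to 16.42 in batch 2 and 15.37 to 15.85 in batch 1, and CDH1, which encodes E-cadherin, was 12.80 to 14.09 in batch 2 and 13.04 to 14.27 in batch 1. Of 15 blood and endothelial markers 12 were at the floor in all 8 libraries, and so were 7 of 12 fibroblast markers, including PDGFRA, PDGFRB, COL1A2, COL3A1 and LUM. Other members of these lists were above the floor in all 8 libraries. They were the fibroblast markers FAP, PDPN and COL1A1 and the blood markers CD14 and CD68. DCN, POSTN and KDR were above it in some libraries.

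In batch 2, 33 of 39 interferon-stimulated genes tested fell and 22 of 41 squamous differentiation genes tested rose. A paired limma fit with siRNA group and batch as terms called 3732 of 12315 entries (30.3%) at a Benjamini-Hochberg adjusted p under 0.05. Of these, 1541 rose in batch 2 (12.5%) and 2191 fell (17.8%), and 3513 had the same direction in all 4 pairs. Most of the called differences were small, with a median size of 0.30 on the log2 scale against 0.13 over all entries tested. A difference of at least 2-fold was reached by 163 called entries, of which 18 rose and 145 fell. At least 4-fold were 22 falls and a single rise, SPRR3. With libraries scaled by medians of ratios instead, 49.1% of the calls were rises, against 41.3% with the deposited scaling; the median of all entries then moved to -0.01, against -0.03. Whichever siRNA pair was left out, 580 rises and 949 falls passed every time. Without the pairing by siRNA, 110 entries were called, all with the same direction as in the paired fit.

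**Figure D1:**
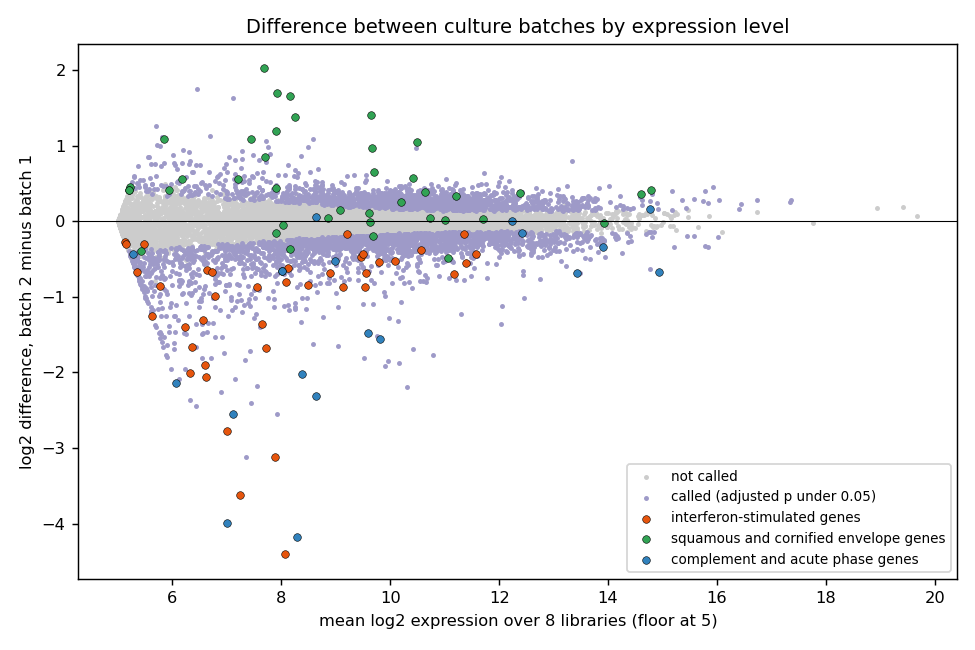
Each point is 1 of the 12315 entries tested, placed by its mean log2 level over 8 libraries (horizontal axis) and its log2 difference, batch 2 minus batch 1 (vertical axis); grey entries were not called, purple ones were, and 3 gene lists are coloured. Interferon-stimulated (orange) and complement and acute phase genes (blue) lie mainly below 0, down to -4.41 for BST2, and squamous genes (green) mainly above 0, up to 2.02 for SPRR3; the slanted edges at low levels come from the floor.

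Some entries were above the floor in 1 batch alone. A value at the floor does not show that a gene was absent, because every lower value had been set to the floor. The floor held in all 4 libraries of batch 2 for 36 entries that were above it in all 4 of batch 1, and the reverse was true of 6 entries. These entries passed the filter through the batch in which they were above the floor, so the direction of their difference was fixed in advance. Some cleared the floor by little and were not called. More widely, 132 of the entries tested were at the floor throughout batch 2 and 32 throughout batch 1. The libraries of the batches did not overlap at all for 976 entries (7.93%), of which 603 were lower in batch 2 (4.9%) and 373 higher (3.03%). Where the library of the lower batch is at the floor and its partner above it, a pair's difference is a lower bound on its size; where both are at the floor, the pair gives no size.

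Interferon-stimulated genes were the list with the largest share of falls. Of 43 listed genes 39 were tested, and 33 fell and 0 rose in batch 2, with a median difference of -0.80 against -0.03 over all entries tested. Restricted to the 23 members above the floor in all 8 libraries, 21 fell and 0 rose. Of the 33 falls, 20 passed whichever siRNA pair was left out. BST2, which encodes the virion-retaining membrane protein tetherin, had 5.85 (siLATS) and 7.63 (siLATS_p53) in batch 2 with sip53 and siControl at the floor, against 10.90 (siLATS), 10.63 (siLATS_p53), 10.23 (sip53) and 9.34 (siControl) in batch 1. All batch 2 libraries lay below all batch 1 libraries. The difference was -4.41 ± 0.25 (SE; adjusted p = 4.4e-08), a lower bound because of the libraries at the floor.

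IFI44L, an interferon-induced gene of unsettled biochemical role, was listed at the floor in the siLATS, sip53 and siControl libraries of batch 2 and at 6.76 in siLATS_p53, against 10.62, 8.79, 7.37 and 9.44 in the siLATS, sip53, siControl and siLATS_p53 libraries of batch 1. IFI6, which encodes a small mitochondrial protein, had 5.43 (siLATS), 5.72 (sip53), 9.15 (siLATS_p53) and the floor (siControl) in batch 2, against 11.04, 9.32, 10.32 and 7.09 in batch 1. In both genes siLATS_p53 had the highest level among the batch 2 libraries. GBP1, a guanylate-binding GTPase, stayed well above the floor at 8.31, 7.98, 8.75 and 7.22 in batch 2 (siLATS, sip53, siLATS_p53, siControl), against 9.38, 8.73, 9.39 and 8.12 in batch 1, and fell by 0.84 ± 0.09. The transcription factor STAT2 fell by 0.52 ± 0.09. Of these, IFI6 and STAT2 were chosen after their values were seen. IRF1 (-0.18 ± 0.08) and OAS3 (-0.43 ± 0.16), a 2'-5'-oligoadenylate synthetase, also chosen so, did not pass.

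The promoters of BST2, IFI44L and IFI6 are shown because the interferon-stimulated response element is written in them. The 200 bases before each gene's start are given 5′ to 3′ on the gene's strand, from RefSeq on GRCh38.p14, with matches to the element (GAAA, any 2 bases, then GAAA) in capitals; both strands were searched, and the matches in BST2 overlap.
BST2 (chr19:17405631-17405830, minus strand): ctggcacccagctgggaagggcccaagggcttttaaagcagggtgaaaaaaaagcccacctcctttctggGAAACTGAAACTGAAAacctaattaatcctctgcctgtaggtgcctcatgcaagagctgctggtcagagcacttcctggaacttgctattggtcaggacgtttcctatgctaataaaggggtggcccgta
IFI44L (chr1:78620248-78620447, plus strand): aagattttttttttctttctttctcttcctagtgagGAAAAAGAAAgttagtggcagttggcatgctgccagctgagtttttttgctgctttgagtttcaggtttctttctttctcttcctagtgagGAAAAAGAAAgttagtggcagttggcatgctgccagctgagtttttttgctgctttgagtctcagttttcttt
IFI6 (chr1:27672193-27672392, minus strand): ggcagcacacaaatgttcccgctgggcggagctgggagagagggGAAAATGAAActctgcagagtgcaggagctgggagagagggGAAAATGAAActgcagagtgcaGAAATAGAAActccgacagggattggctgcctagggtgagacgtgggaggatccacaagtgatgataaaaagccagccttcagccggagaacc
Shares of promoters with a motif, here and below, were counted over a longer window than the printed one. It ran from 250 bases before the start to 50 bases after it. Of the promoters matched to tested entries, 14 of 99 that belong to falls of at least 2-fold held this motif (14.1%), against 2.36% of the promoters of entries not called and 3.65% of all promoters in the table. A match is a description of these letters, not a bound site, and 70.8% of the unique tested symbols could be matched to a promoter.

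Interferon-stimulated genes differed between the batches in each siRNA pair, with medians over the 39 genes of -1.38 in the siLATS pair, -0.69 in the sip53 pair, -0.52 in the siLATS_p53 pair and -0.27 in the siControl pair. In siControl many members were at the floor in both batches, 15 in batch 2 and 9 in batch 1, which limits the size a difference can have there. In siLATS 12 members were at the floor in batch 2 and 0 in batch 1. The median level of the list was 6.38 (siLATS), 6.06 (sip53), 8.33 (siLATS_p53) and 5.94 (siControl) in batch 2, against 9.57, 8.28, 9.19 and 7.13 in batch 1. Within batch 2 the siLATS_p53 library was therefore the only one with a list median above 7, whereas all batch 1 libraries were. A test of the batch difference by LATS siRNA (1 residual degree of freedom) called 1 of the 39 genes, MX1. MX1 was at the floor in all 4 libraries of batch 2 and in siControl of batch 1, so this call rests on its batch 1 levels alone.

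**Figure D2:**
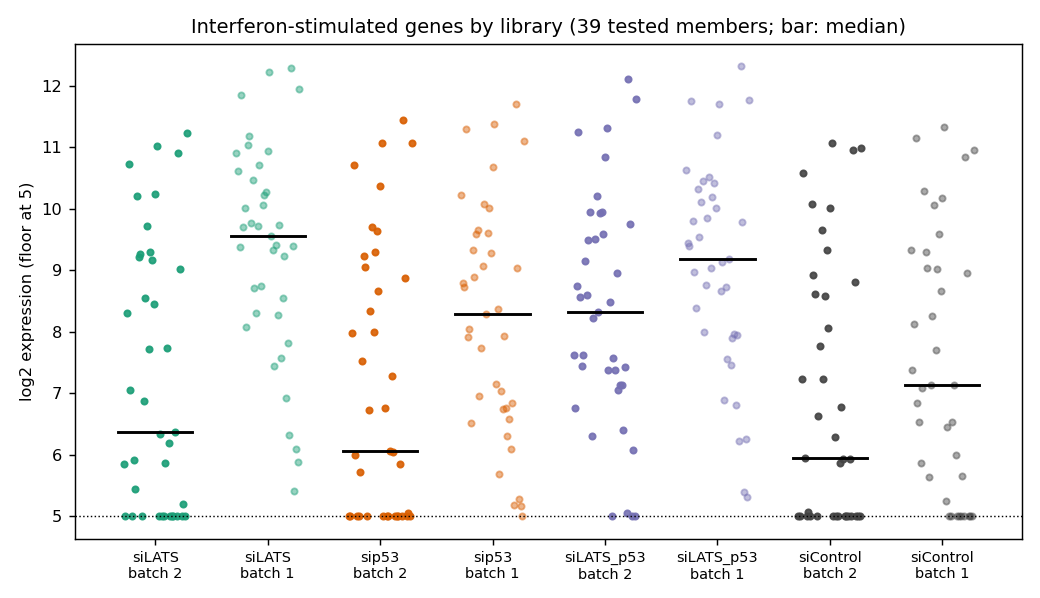
Log2 levels (vertical axis, floor at 5 dotted) of the 39 interferon-stimulated genes tested, each gene a point, in the batch 2 and batch 1 library of each siRNA group (horizontal axis), with the median as a bar. The batch 2 median is below the batch 1 median in all 4 groups, by most in siLATS (6.38 against 9.57), and 15 members sit on the floor in siControl of batch 2.

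Antigen presentation genes fell along with them. Of 12 tested, 8 fell and 0 rose in batch 2. B2M, the light chain shared by class I molecules, was 14.54 (siLATS), 14.36 (sip53), 14.66 (siLATS_p53) and 14.26 (siControl) in batch 2, against 15.25, 15.03, 15.19 and 14.89 in batch 1. The batches did not overlap, and B2M fell by 0.64 ± 0.05 (adjusted p = 9.3e-07). ERAP1, the aminopeptidase that trims peptides for class I, fell by 0.59 ± 0.06, and PSMB8, an immunoproteasome subunit, by 0.37 ± 0.06. Class I heavy chain genes are near-identical copies and are counted without being named.

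Complement and acute phase genes showed the largest single differences beside BST2. This list was put together after its genes had been noticed among the largest falls, so its count describes and tests nothing. Of 30 listed genes 18 were tested; 14 fell and 1, the membrane inhibitor CD59, rose. SERPINA3, an acute phase protease inhibitor, was 5.86 (siLATS), 5.95 (sip53), 6.30 (siLATS_p53) and 6.69 (siControl) in batch 2, against 9.66, 10.50, 10.71 and 10.65 in batch 1. No library of batch 2 came near batch 1, and the difference was -4.18 ± 0.12 (adjusted p = 5.4e-11). SERPINA1, which encodes alpha-1 antitrypsin, fell by 2.31 ± 0.11, the complement factor B gene CFB by 1.48 ± 0.08 and C3, the central complement component, by 0.68 ± 0.06. The classical pathway proteases C1R (-2.02 ± 0.12) and C1S (-2.55 ± 0.16) and the acute phase gene SAA2 (-1.56 ± 0.08) fell too; SAA2 has a close paralog, SAA1, which fell by 0.69 ± 0.08, and reads may be shared between them. PTX3, a long pentraxin, did not pass (0.06 ± 0.09). C3, C1R, C1S, SAA1, CD59 and PTX3 were chosen after their values were seen.

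Of 26 inflammatory and NF-kB genes tested, 12 fell and 5 rose. The falls held secreted factors. IL8 (CXCL8), a neutrophil chemokine, was 8.31 (siLATS), 9.33 (sip53), 9.57 (siLATS_p53) and 9.69 (siControl) in batch 2, against 10.74, 10.97, 10.70 and 12.02 in batch 1. CXCL1, another neutrophil chemokine, was 10.92, 11.40, 11.79 and 11.31 in batch 2 in the same order of groups, against 12.21, 12.83, 12.70 and 13.12 in batch 1. Neither gene overlapped between the batches, and the differences were -1.88 ± 0.15 for IL8 and -1.36 ± 0.10 for CXCL1. LIF, a cytokine of the interleukin-6 family, fell by 1.10 ± 0.08, and CCL20, CSF3 and the adhesion molecule gene ICAM1 fell by 1.10 ± 0.10, 1.02 ± 0.10 and 0.77 ± 0.08. Several genes of the NF-kB pathway itself went the other way: RELB (0.41 ± 0.08), NFKB2 (0.20 ± 0.05) and the feedback inhibitor TNFAIP3 (0.18 ± 0.05) rose, as did IL1RN (0.99 ± 0.09), which encodes the interleukin-1 receptor antagonist. Apart from IL8, CXCL1 and LIF, these genes were chosen after their values were seen. NFKBIA and NFKB1, also chosen so, did not pass.

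The promoters of CXCL1 and CXCL8 are shown because the same NF-kB motif, GGAATTTCC (in capitals, both strands searched), lies before both genes.
CXCL1 (chr4:73869193-73869392, plus strand): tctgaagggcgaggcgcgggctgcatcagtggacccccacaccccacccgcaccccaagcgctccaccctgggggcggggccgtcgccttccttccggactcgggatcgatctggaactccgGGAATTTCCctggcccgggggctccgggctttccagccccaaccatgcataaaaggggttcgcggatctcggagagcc
CXCL8, IL8 in the files (chr4:73740369-73740568, plus strand): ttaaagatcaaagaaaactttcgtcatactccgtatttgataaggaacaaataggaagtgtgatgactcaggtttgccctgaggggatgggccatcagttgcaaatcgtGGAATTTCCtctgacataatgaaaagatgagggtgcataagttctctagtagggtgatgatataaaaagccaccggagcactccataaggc
Of 99 promoters of falls of at least 2-fold, 2 held this motif, those of IL8 and CXCL1 themselves. Over all matched falls the share was 0.505%, against 0.549% for entries not called and 0.472% of all promoters in the table.

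Genes of squamous differentiation and the cornified envelope were higher in batch 2. Of 52 listed genes 41 were tested, and 22 rose, 3 fell and the rest did not pass, with a median difference of 0.41. Of the 36 above the floor in all 8 libraries, 21 rose and 4 fell. Among the 18 rises of at least 2-fold in the whole data set, 9 were members of this list. SPRR3, a small proline-rich envelope precursor, was 8.63 (siLATS), 8.69 (sip53), 9.01 (siLATS_p53) and 8.42 (siControl) in batch 2, against 6.67, 7.0, 6.57 and 6.42 in batch 1, a rise of 2.02 ± 0.12 (adjusted p = 4.8e-08). KRT4, a keratin of stratified mucosa, was 8.52, 9.28, 9.43 and 8.67 in batch 2, against 6.71, 7.89, 7.93 and 6.78 in batch 1. The batches did not overlap for either gene.

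SPRR1A (1.70 ± 0.09), SPRR1B (1.05 ± 0.08), S100A7 (1.38 ± 0.13), the suprabasin gene SBSN (1.20 ± 0.12) and involucrin, IVL (1.09 ± 0.13), rose as well. A2ML1, a protease inhibitor of the upper epidermis, was 10.18 (siLATS), 10.43 (sip53), 10.49 (siLATS_p53) and 10.27 (siControl) in batch 2, against 8.74, 9.33, 8.66 and 9.02 in batch 1. It rose by 1.40 ± 0.10 without overlap. The members did not all move together, however. PPL, which encodes the desmosomal plaque protein periplakin, fell by 0.49 ± 0.06 and LCN2 by 0.66 ± 0.12. TGM1 (-0.20 ± 0.08), the transglutaminase that cross-links the envelope, GRHL3 (0.05 ± 0.08), a transcription factor of the epidermal barrier, and KLF4 (-0.05 ± 0.09) did not pass. S100A7, SBSN, IVL, PPL, LCN2, TGM1, GRHL3 and KLF4 were chosen after their values were seen. Small proline-rich genes resemble each other in sequence, and reads may be shared among them.

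The promoter of SPRR1B is shown for its AP-1 motifs, TGANTCA, in capitals.
SPRR1B (chr1:153031003-153031202, plus strand): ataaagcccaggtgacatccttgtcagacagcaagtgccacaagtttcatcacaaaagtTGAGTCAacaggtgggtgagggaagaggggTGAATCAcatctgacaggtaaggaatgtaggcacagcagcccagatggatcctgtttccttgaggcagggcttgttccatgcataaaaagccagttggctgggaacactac
This motif was in 5 of 14 promoters of rises of at least 2-fold (35.7%) and in 8.08% of those of falls of that size. Over all rises the share was 5.32%, over all falls 5.11% and over all tested entries 4.69%, with 7.76% of all promoters in the table.

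Basal markers tended the same way and luminal markers the other. Of 22 basal markers tested 12 rose and 2 fell, with a median of 0.26, and of 13 luminal markers 1 rose and 7 fell, with a median of -0.27. KRT14, a basal keratin, was 13.19 (siLATS), 14.19 (sip53), 13.73 (siLATS_p53) and 13.83 (siControl) in batch 2, against 12.37, 13.50, 12.91 and 12.97 in batch 1. It was higher in batch 2 in 4 of 4 pairs, although the batches overlapped because the siRNA groups differ, and it rose by 0.79 ± 0.05 (adjusted p = 6.8e-08). The hemidesmosome collagen COL17A1 rose by 0.36 ± 0.05 and KRT17 by 0.36 ± 0.05. The simple epithelial keratin KRT8 was 11.26, 9.15, 11.54 and 9.22 in batch 2 (siLATS, sip53, siLATS_p53, siControl), against 11.84, 10.12, 12.11 and 9.92 in batch 1, a fall of 0.71 ± 0.07. The mucin gene MUC1 fell by 0.55 ± 0.06 and CD24, a surface glycoprotein, by 0.37 ± 0.05. Some members, chosen after their values were seen, had ranges that went the other way. The basal marker ITGB1 was 14.75 to 15.27 in batch 2, against 15.20 to 15.59 in batch 1. MME, also basal, was 9.23 to 9.74 in batch 2, against 9.65 to 10.12 in batch 1. The luminal marker AREG was 12.88 to 14.27 in batch 2, against 12.36 to 13.79 in batch 1. All 7 luminal falls and 11 of the 12 basal rises passed whichever pair was left out.

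Beyond these lists, 24 genes were named for the size of their difference among called entries above the median level with 1 direction in all pairs. Repeated symbols and families of near-identical copies were left out of this ranking, although a larger fall occurred among them. The 12 largest rises were A2ML1, SPRR1B, INHBA, KRT14, KLK5, MICAL2, GPR153, NDRG1, KRT16, FOSL1, AQP3 and LAD1. INHBA, which encodes the activin A subunit, was 10.43 (siLATS), 11.15 (sip53), 10.48 (siLATS_p53) and 11.75 (siControl) in batch 2, against 9.70, 10.08, 9.46 and 10.69 in batch 1, a rise of 0.97 ± 0.06. MICAL2, an actin-oxidising enzyme, rose by 0.64 ± 0.05, the AP-1 subunit FOSL1 by 0.56 ± 0.06 and the basement membrane protein ladinin-1, LAD1, by 0.54 ± 0.06. AQP3, a water and glycerol channel, was alone among the 12 in not passing each time a pair was left out (0.55 ± 0.11); its sip53 pair was nearly level, at 10.18 in batch 2 against 10.11 in batch 1.

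The 12 largest falls in this ranking were NUP210, IL8, SPARC, LCP1, FADS2, TFPI, SAA2, LPHN2, CFB, CXCL1, ABCC2 and SCNN1G, all of which passed whichever pair was left out. SPARC, a matrix glycoprotein, was 9.52 (siLATS), 8.45 (sip53), 9.60 (siLATS_p53) and 8.57 (siControl) in batch 2, against 11.34, 10.41, 11.03 and 10.75 in batch 1. The batches did not overlap, and SPARC fell by 1.85 ± 0.09. FADS2, the delta-6 fatty acid desaturase, was 9.94, 9.53, 10.51 and 9.65 in batch 2, against 11.59, 11.67, 12.16 and 11.28 in batch 1, a fall of 1.77 ± 0.08. NUP210, a nuclear pore membrane protein, fell by 1.92 ± 0.13, the actin-bundling protein L-plastin, LCP1, by 1.80 ± 0.10, the coagulation inhibitor TFPI by 1.69 ± 0.08 and the adhesion receptor LPHN2 by 1.51 ± 0.06. SCNN1G, a subunit of the epithelial sodium channel, fell by 1.27 ± 0.06.

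**Figure D3:**
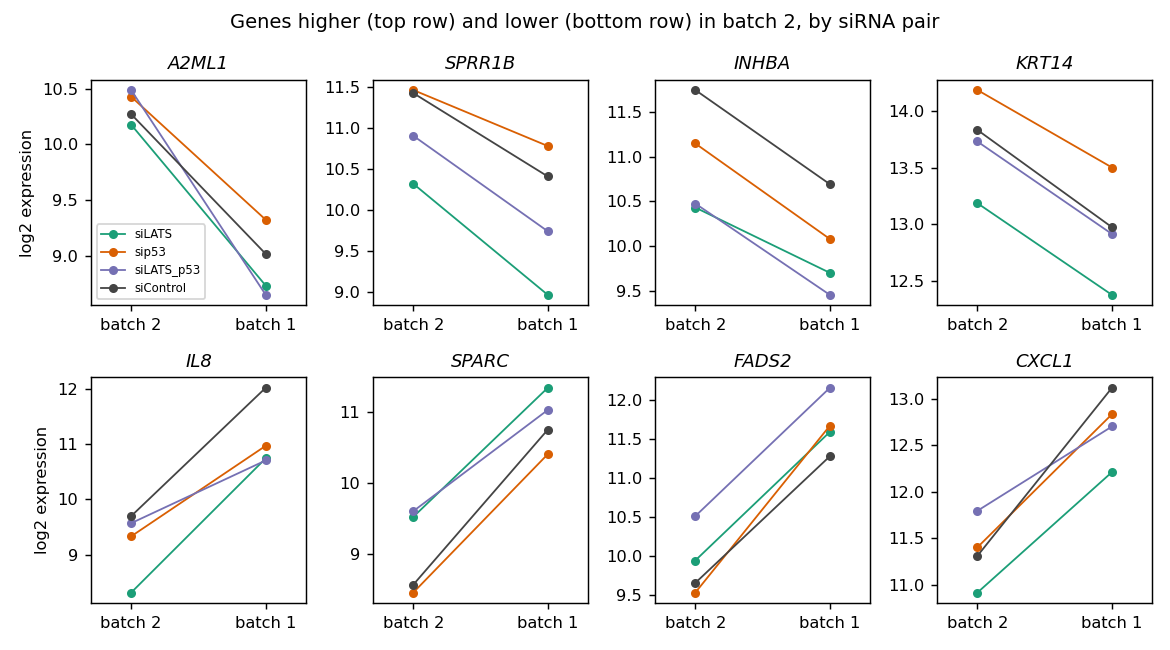
Log2 levels (vertical axes) of 4 genes higher in batch 2 (top) and 4 lower in batch 2 (bottom); each line joins the batch 2 and batch 1 library of an siRNA group. Every line falls towards batch 1 in the top panels and climbs in the bottom ones, with KRT14 shifted by 0.79 on average and IL8 by -1.88.

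Mesenchymal and matrix genes were lower in batch 2 more often than higher. Of 46 listed genes 32 were tested, and 14 fell and 3 rose. CDH2, which encodes N-cadherin, was 6.62 (siLATS), 6.83 (sip53), 6.53 (siLATS_p53) and 6.61 (siControl) in batch 2, against 9.20, 9.15, 9.18 and 9.28 in batch 1. It varied little among siRNA groups and fell by 2.55 ± 0.09 (adjusted p = 8.6e-10) without overlap. DCN, which encodes the matrix proteoglycan decorin, was at the floor in siLATS and siLATS_p53 and at 6.14 (sip53) and 7.02 (siControl) in batch 2, against 7.87 (siLATS), 8.39 (siLATS_p53), 9.53 (sip53) and 9.86 (siControl) in batch 1. Decorin is also a fibroblast marker. Of the 12 fibroblast markers 4 were tested; DCN and FAP (-0.41 ± 0.07) fell, and PDPN rose by 0.15 ± 0.05. Of 21 TGF-beta response genes 11 fell and 4 rose. LTBP2 (-0.81 ± 0.07), a latent TGF-beta binding protein, and the receptor TGFBR2 (-0.48 ± 0.05) fell, and INHBA (0.97 ± 0.06) rose.

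Detoxification and fatty acid synthesis genes fell in part. Of 23 targets of NRF2, the transcription factor of the oxidant response, 12 fell and 1 rose, with a median of -0.29. The efflux pump ABCC2 was 10.19 (siLATS), 8.60 (sip53), 10.14 (siLATS_p53) and 9.0 (siControl) in batch 2, against 11.18, 10.42, 11.28 and 10.33 in batch 1, and its relative ABCC3 fell by 1.22 ± 0.06. GCLC, the catalytic subunit of glutathione synthesis, fell by 0.68 ± 0.06 and the quinone reductase NQO1 by 0.53 ± 0.05. HMOX1 (0.02 ± 0.13), TKT (0.03 ± 0.06) and SRXN1 (0.04 ± 0.06), chosen after their values were seen, did not pass. The antioxidant response element core, TGACNNNGC, was also searched in the matched promoters of all tested entries. It was in 13.1% of those of falls of at least 2-fold and 14.9% of all falls, against 15.2% for entries not called. Of 14 fatty acid synthesis genes 8 fell and 0 rose, including LPIN1 (-0.50 ± 0.05), a phosphatidate phosphatase, and the elongase ELOVL6 (-0.40 ± 0.05). Of 25 cholesterol synthesis genes 7 fell and 3 rose, but 3 fell and 3 rose after a correction for GC content and 3 or 4 fell when any 1 pair was left out, so no direction can be given; DHCR7, which makes the last step to cholesterol, rose by 0.25 ± 0.05. In a hypoxia and glycolysis list 14 of 38 genes fell and 4 rose, with a median of -0.04, against -0.03 over all entries. SLC2A3, a glucose transporter, fell by 1.65 ± 0.10 and VEGFA by 0.62 ± 0.06, whereas NDRG1 rose by 0.59 ± 0.07.

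Cell cycle genes and genes downstream of the targeted proteins are set here beside the shares over all entries, 12.5% for rises and 17.8% for falls. Of 42 S phase genes 7 rose (16.7%) and 0 fell. The rises held the helicase subunit MCM7 (0.27 ± 0.04) and the flap endonuclease FEN1 (0.21 ± 0.05). Of 41 G2/M genes 9 fell and 1 rose with the deposited scaling, but 4 fell after rescaling by medians of ratios, and 0 fell and 5 rose after a correction for GC content, so no direction can be given. Of 46 p53 targets 7 rose (15.2%) and 8 fell (17.4%): CDKN1A rose by 0.31 ± 0.06, and the stress cytokine GDF15 fell by 0.82 ± 0.13. Of 34 YAP/TAZ targets 9 rose (26.5%) and 5 fell (14.7%), with AMOTL1, an angiomotin, up by 0.31 ± 0.05 and the receptor kinase AXL up by 0.35 ± 0.06.

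Rises were gathered on particular chromosomes. A chromosome was known for 96.0% of the tested entries, 11823 in all. Of these, 2660 (22.5%) lay on chromosomes 7, 8, 11, 13 and 19, which were picked after their medians were seen. They held 991 of the 1521 rises with a known chromosome (65.2%) and 137 of the 2114 falls (6.48%). Put the other way, 37.3% of the entries on these 5 chromosomes rose, against 5.78% of the entries on the others. The share that rose was 46.1% on chromosome 19, 41.6% on 11, 32.3% on 7, 27.1% on 8 and 21.6% on 13, and 15.0% on chromosome 20.

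The shift was small and present in every siRNA pair. After a correction for GC content, the median difference on chromosome 11 was 0.15 (siLATS pair), 0.15 (sip53 pair), 0.17 (siLATS_p53 pair) and 0.15 (siControl pair). On chromosome 19 it was 0.15, 0.15, 0.12 and 0.14, and chromosomes 7, 8 and 13 lay between 0.11 and 0.16 in all 4 pairs. Chromosome 20 was at 0.04 to 0.07, and each of the others at -0.08 to 0.00. Without the correction the median over the fit was 0.20 on chromosome 19, 0.15 on 11, 0.10 on 7, 0.07 on 8 and 0.05 on 13 and 20. With the correction, entries on the 5 chromosomes together stood above those on the others, chromosome 20 left out, by 0.18 in each of the 4 pairs, which is 1.13-fold. The same quantity between siRNA groups within a batch, measured in 6 contrasts, was at most 0.02. When the entries of a chromosome were cut into stretches of up to 40 neighbours, in the order of the deposited table, the median was above 0 in all 17 stretches of chromosome 11, all 20 of chromosome 19, all 13 of chromosome 7, all 10 of chromosome 8, all 5 of chromosome 13 and all 8 of chromosome 20. Stretch medians ran from 0.11 to 0.22 on chromosome 11 and from 0.005 to 0.079 on chromosome 20. On the other chromosomes the share above 0 ran from 0 of 15 on chromosome 6 to 2 of 4 on chromosome 18. These chromosomes were singled out by their medians, so stretches above 0 were largely fixed in advance. Chromosome copy number was not measured in this series, and its part in these shifts was not tested.

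**Figure D4:**
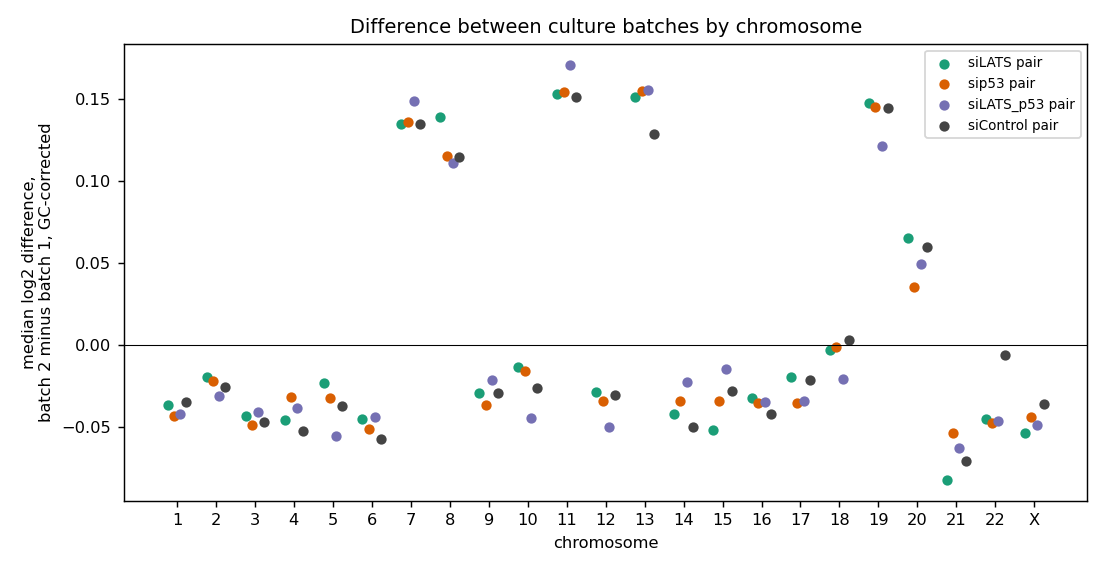
Median log2 difference, batch 2 minus batch 1, after GC correction (vertical axis) of the entries on each chromosome (horizontal axis), with a point for each siRNA pair. Chromosomes 7, 8, 11, 13 and 19 stand at 0.11 to 0.17 in all 4 pairs and chromosome 20 at 0.04 to 0.07, while the others lie at or below 0.00.

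Large differences were found on these chromosomes and elsewhere. Of the 17 rises of at least 2-fold with a known chromosome 6 lay on the 5 chromosomes, a smaller share than among all rises, as did 5 of the 12 largest named rises (INHBA, KLK5, MICAL2, NDRG1 and FOSL1). Of the 142 falls of at least 2-fold 20 lay there, a larger share than among all falls, among them FADS2, LCP1 and SAA2. BST2, on chromosome 19, fell against the shift of its chromosome. In several housekeeping lists most rises lay there. Of 80 ribosomal protein genes 27 rose, 19 of them among the 20 tested on these chromosomes. All 16 rises among 85 nuclear-encoded respiratory chain genes, 8 of 9 rises among 70 mitochondrial ribosomal protein genes, all 7 S phase rises, all 5 heat shock rises and 6 of 9 YAP/TAZ rises were on the 5 chromosomes. The members tested there numbered 27, 18, 12, 8 and 13 in these lists, in the same order. Of the 22 squamous rises 2 lay there, with 7 members tested there, and of the 12 basal rises 2, with 5 tested there. Over all entries on these chromosomes 37.3% rose.

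Base composition moved with the batch as well. Across 11785 entries with a transcript in GENCODE, GC content and the difference between the batches had a Spearman rho of 0.39, as a description over genes that share libraries. The rho was 0.12 in the siLATS pair, 0.22 in the sip53 pair, 0.44 in the siLATS_p53 pair and 0.46 in the siControl pair. The last pair of values belongs to the groups whose batch 1 libraries had the lowest estimated depth, 11.3 and 12.1 M reads. The median difference was 0.10 in the richest of 5 equal classes of GC content and -0.12 in the poorest. With a correction for GC content 3512 entries were called, 1749 higher and 1763 lower. Under this correction 34 interferon-stimulated genes fell, 13 complement and acute phase genes fell, and 21 squamous genes rose and 4 fell.

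**Figure D5:**
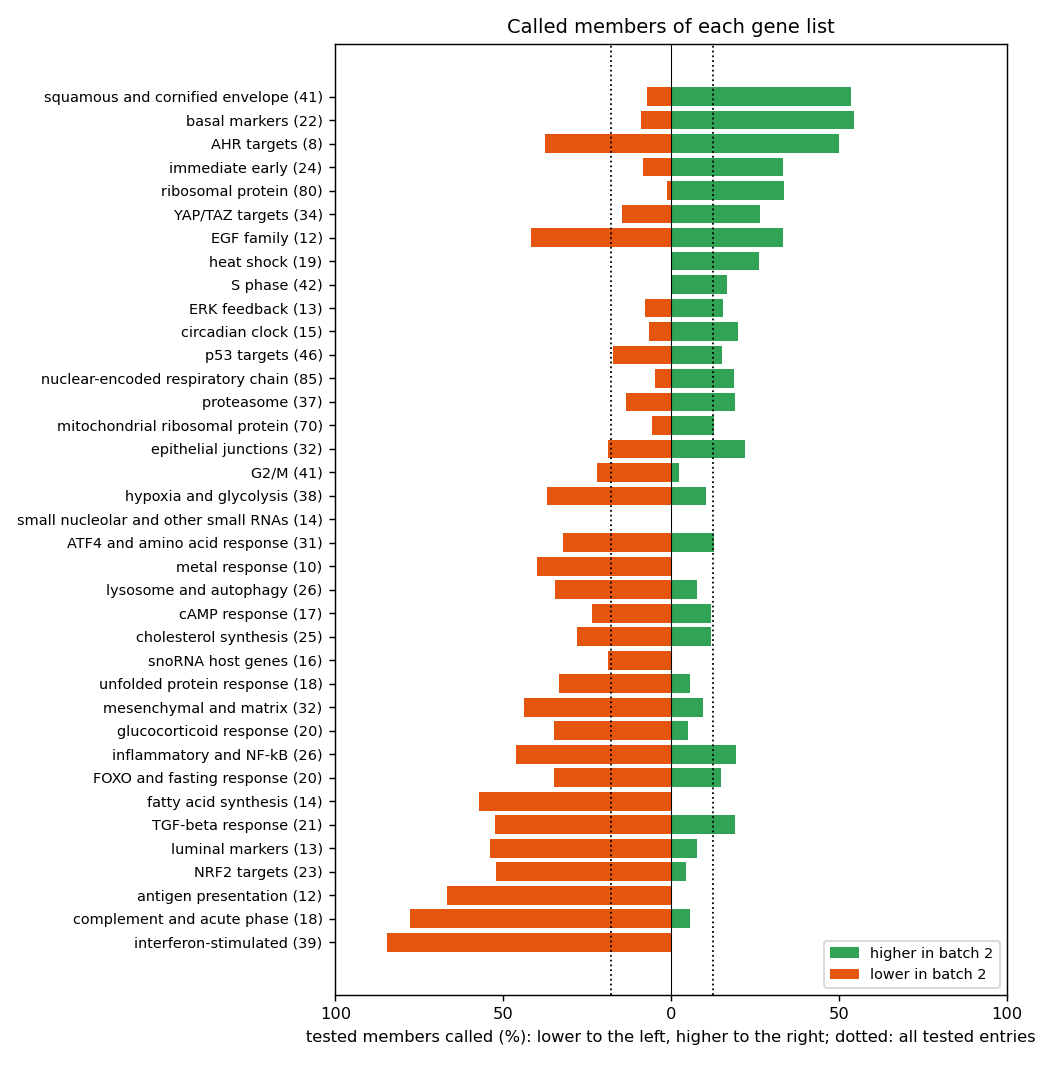
Share of the tested members of each gene list with 8 or more tested (number in brackets) that fell (left, orange) or rose (right, green) in batch 2, with dotted lines at the shares over all entries tested, 17.8% for falls and 12.5% for rises. Interferon-stimulated genes have the largest share of falls (33 of 39), and squamous and basal genes the largest shares of rises (22 of 41 and 12 of 22).

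The median residual SD was 0.0949 with the batch as a term, against 0.141 without it. Each knockdown against siControl was called in more entries with the batch as a block than without: siLATS in 3937 (32%) against 948 (7.7%), sip53 in 3199 (26%) against 475 (3.86%), and siLATS_p53 in 4832 (39.2%) against 1792 (14.6%). Of the entries gained, 1208 of 2989 (siLATS), 1138 of 2724 (sip53) and 1406 of 3040 (siLATS_p53) were also called between the batches. Over all entries tested, 3732 of 12315 (30.3%) were called between the batches. The block takes the batch difference out of the residual, so this overlap is in part built in. These comparisons share the siControl libraries. The batch difference itself varied by siRNA in few genes that could be called with 1 residual degree of freedom. It differed by LATS siRNA in 7 entries (0.0568%) and by p53 siRNA in 1 entry, IL8 (0.00812%). After rescaling by medians of ratios it was 28 entries (0.227%) in either test. S100A9 and S100A8, which encode the subunits of calprotectin, were such genes. S100A9 was 10.87 (siLATS) and 11.64 (siLATS_p53) in batch 2, against 10.22 and 10.90 in batch 1, whereas sip53 had 11.54 in batch 2 against 11.66 in batch 1 and siControl 11.46 against 11.41. It was thus higher in batch 2 with LATS siRNA and about level without it (difference of differences 0.74 ± 0.12).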

How the data were processed

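The deposited files hold log2 expression levels that the authors scaled between libraries and floored at 5, judged from the values. Per the labels' protocols, polyadenylated RNA was made into TruSeq version 2 libraries, which do not keep strand, so overlapping genes cannot be told apart. TopHat and hg19 are named, per the submitters' processing notes, with no version. For the counter, annotation and scaling the entry is "not given in the sources used here"; counts were not recovered, and depth was estimated from the steps between linear values of 32 to 80.

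The 12315 of 29991 entries that exceeded the floor in 2 or more libraries were fitted with limma 3.58.1 in R 4.3.3 on the deposited log2 values, with siRNA group and batch as terms, a mean-variance trend and 3 residual degrees of freedom. The Benjamini-Hochberg adjustment ran over all tested entries, with a threshold of 0.05. The p-values and SEs of the batch difference combine how far it varied among the 4 siRNA pairs with the spread of entries of similar level. The latter carried 10.9 prior degrees of freedom, against 3 residual ones. An SE can therefore be larger or smaller than a gene's own 4 pairs would give. Only 2 batches were compared, so the p-values and SEs carry no variation between further batches of cells. The procedure was tested on simulated data. Single library measures were compared by exact permutation within pairs, and promoter and chromosome tables were joined by symbol. GC content came from GENCODE transcripts.

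Batch numbers pair the libraries per the labels: deviations from the siRNA group means correlated at 0.565 to 0.726 between groups of the same batch. The members and the gene lists were chosen with earlier results of these data known. The complement list and the set of 5 chromosomes were chosen after their values were seen. The named genes were the targeted genes, the 12 largest rises and 12 largest falls among called entries above the median level with 1 direction in all pairs, and up to 3 called members of each of 40 lists; not all of them are printed, and other genes are said to be chosen after their values were seen. The results of some genes are not reported here. Repeated symbols (56 tested entries) and families of near-identical copies were not named. Alternatives were other scalings, filters, pseudocounts and variance models, the fit without the block, each siRNA pair left out, and, added after seeing the data, GC correction, a higher level limit, library weights and leaving out 5 chromosomes.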

Additional observations from a re-analysis of the deposited data

Results flagged for a closer look

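Among the 4 pair differences of each of 119 named genes, 6 genes had a pair far from the other 3; chance gives about 1 in 20. The siLATS pair stood apart for INHBA (0.73, against larger rises in the other pairs) and for ESRP1, a splicing regulator of epithelia (0.50). The sip53 pair stood apart for FADS2 (-2.14), the siLATS_p53 pair for PDE4D, a cAMP phosphodiesterase (-0.60), and the siControl pair for the proteasome subunit PSMC3 (0.45) and for FAP (-0.67). All 6 genes kept their call whichever pair was left out.

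For 7 entries the difference between the batches depended on LATS siRNA, by a test of the interaction in limma (adjusted p under 0.05, 1 residual degree of freedom). The interaction was positive for S100A9 (0.74), S100A8 (0.76), NUP210 (0.79) and the steroid dehydrogenase HSD17B2 (1.6), and negative for MX1 (-1.83), the sarcomere gene MYPN (-1.35) and IFITM1 (-1.85), a member of a family of close copies. HSD17B2, MX1, MYPN and IFITM1 had libraries at the floor in batch 2, some of them in both batches, so these sizes depend on it and are no bounds. NUP210 was lower in batch 2 in every pair, by less with LATS siRNA. The difference depended on p53 siRNA for IL8 (0.99), with pair differences of -1.64 (sip53) and -1.14 (siLATS_p53), against -2.43 (siLATS) and -2.32 (siControl).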

How the results depend on the processing

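The number of entries called was 3732 (1541 higher, 2191 lower in batch 2). Without the replicate block, here the pairing of libraries by siRNA, 110 were called (14 and 96), all of them among the 3732 with the same direction. With no filter 24 of 29991 were called (5 and 19). Leaving out 1 siRNA pair gave 1977 to 2685 calls (790 to 1165 higher, 1187 to 1520 lower), and leaving out both the siControl and siLATS_p53 pairs, whose batch 1 libraries had the lowest estimated depth, gave 1043 (377 and 666). Without chromosomes 7, 8, 11, 13 and 19, added after seeing the data, 541 entries rose. The other scalings, filters, pseudocounts and variance models kept all 3 counts within 1.5 times. The batch difference depended on LATS siRNA in 7 entries, in 28 after rescaling by medians of ratios and in 13 among entries above the floor in all 8 libraries; for p53 siRNA these numbers were 1, 28 and 21. The knockdowns were called without and with the paired block in 948 and 3937 entries (siLATS), 475 and 3199 (sip53), and 1792 and 4832 (siLATS_p53). Of 117 called named genes, 96 passed whichever pair was left out, and none of the 119 named genes turned in sign in an alternative. With 4 pairs and the floor, small differences of low genes cannot be resolved. The causes of these changes were not tested.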

Other observations

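Over all entries tested, 12.5% rose and 17.8% fell. Of 24 immediate early genes 8 rose and 2 fell, and 6 of the 8 rises lay on chromosomes 7, 8, 11, 13 and 19. Of 26 lysosome and autophagy genes 9 fell and 2 rose, of 18 genes of the unfolded protein response 6 fell and 1 rose, and of 31 ATF4 and amino acid response genes 10 fell and 4 rose. Of 20 glucocorticoid response genes 7 fell and 1 rose, and of 20 FOXO and fasting response genes 7 fell and 3 rose, including the ubiquitin ligase FBXO32, which fell by 1.17 ± 0.13. CYP1B1, a cytochrome of the aryl hydrocarbon response, fell by 0.48 ± 0.05, in a list of 8 of which 4 rose and 3 fell. NPAS2, a circadian transcription factor, rose by 0.38 ± 0.08, in a list of 15 of which 3 rose and 1 fell.

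Entries that the floor split entirely between the batches included COL6A1, which encodes a chain of collagen VI, CFI, the complement factor I gene, and GHR, the growth hormone receptor gene, all at the floor throughout batch 2. CRNN, which encodes the squamous protein cornulin, and KLK11 were at the floor throughout batch 1. All of these entries passed the filter through the batch in which they were above the floor, so a test of them decides nothing. These genes were chosen after their values were seen.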
